A study of Mus musculus with 16 samples.

Results

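Of the 16 livers of the series, 8 came from mice given the control inhibitor, labelled ctrl-inh, and these were hybridised to 1 slide that carried them in 2 rows of 4 arrays. Row 1 held mice 1, 2, 3 and 4 and row 2 held mice 8, 9, 11 and 12, as read from the array positions and the sample titles. Every one of the 8 was a male ApoE KO mouse on a high-fat diet with a stated age of 8 weeks, and its liver was harvested 8 weeks after ctrl-inh treatment, so the rows shared genotype, sex, diet, treatment and time. ApoE KO mice lack apolipoprotein E, clear remnant lipoproteins poorly and accumulate cholesterol in blood, and the knockout was present in all groups. The other 8 mice, labelled miR-185-inh, received lentivirus carrying antisense to the microRNA miR-185 and lay on a second slide in the same layout. The labels used here give no experimental difference between the rows, and array position and mouse number coincide, so an effect of position cannot be told apart from a difference between the mice. Titles give each sample a number, called its mouse number here, but do not state that the numbers are different animals. The p-values therefore reflect sample-to-sample spread that could be technical.

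Liver RNA comes mostly from hepatocytes, which make plasma proteins, bile acids and much of the body's cholesterol. Cholesterol synthesis is switched on by the transcription factor SREBP2 when sterol in the endoplasmic reticulum is low. The remaining RNA comes from Kupffer cells (the resident macrophages), recruited monocytes and lymphocytes, sinusoidal endothelium and stellate cells, the vitamin A-storing cells that make scar matrix when activated.

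Levels are log2 of the scanner's processed intensity minus the array's own 75th percentile, so a level of 0 equals that percentile and a difference of 1 is a 2-fold change. Differences are row 2 minus row 1, with the standard error (SE) and the adjusted p of limma over all 27130 features tested, and a feature is said to rise or fall only where that adjusted p was below 0.05. With 4 arrays against 4, the smallest two-sided p of an exact permutation test over the 70 splits is 0.0286. Hepatocyte RNA was bright on all 8 arrays. Alb, which encodes albumin, had levels of 6.32, 6.24, 5.73 and 6.03 in row 1 and 6.31, 6.07, 6.28 and 6.39 in row 2. The rows overlapped for Alb, with a difference of 0.19 (SE 0.14) that did not pass the test and turned to -0.05 when arrays were scaled on their spike-in probes. Apoe, the knocked-out gene, gave signal on every array, from 3.54 to 3.82 in row 1 and 3.58 to 4.58 in row 2. Since the position of its probe relative to the deletion is not known here, it checks nothing about genotype.

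The arrays of the rows differed in quality measures before any gene was compared. Between 68.6% and 74.8% of the 59305 non-control spots were well above background in row 1, against 58.7% to 64.2% in row 2, without overlap (exact permutation p = 0.0286). On the miR-185-inh slide the same shares were 62.5% to 67.1% in row 1 and 60.7% to 62.3% in row 2, also without overlap (exact permutation p = 0.0286). The 75th percentile ran from 11.68 to 11.81 in row 1 and from 11.21 to 11.71 in row 2 (exact permutation p = 0.0571). The spike-in RNAs, added in fixed amount, lay 0.89 to 1.02 above the percentile in row 1 and 1.06 to 1.29 above it in row 2, again without overlap. Replicate arrays correlated across genes with r from 0.993 to 0.996 within row 1 and from 0.989 to 0.992 within row 2, against 0.985 to 0.991 between the rows. The first principal component, with 31.8% of the variance, separated the rows, and mouse 12 stood apart from the rest on the second. The part of array quality in the gene differences below was not tested, and the number of arrays limits the precision.

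Across all features, 1145 (4.22%) passed the test, 501 (1.85%) higher and 644 (2.37%) lower in row 2. Of the calls, 577 reached 1.5-fold, 125 higher and 452 lower. The RefSeq-named calls numbered 699, of which 186 were higher and 513 lower. The median difference over all features was 0.08, and 65.7% of them lay above 0. The rows did not overlap in 18.2% of features. The balance of higher and lower calls moved with the scaling. It was 43.8% higher with the 75th percentile of all spots, 24.1% with the percentile of probes detected on all 8 arrays, 29.8% after quantile normalization and 74.3% after normexp background correction. Scaling on the spike-ins, an alternative added after the data were seen, lowered the median of all features to -0.15 and gave 77 higher and 2244 lower calls. The count also fell when 1 liver was left out, which leaves the test fewer arrays as well. Leaving out mouse 2 or mouse 4 left 88 calls each, mouse 1 left 190 and mouse 11 left 207. Mouse 3 left 403, mouse 9 left 434, mouse 12 left 889 and mouse 8 left 915. The share of a given liver in these drops was not tested. Among the 13565 brighter features, where detection is least limiting, 699 were called higher and 393 lower. Of the 1145 calls, 978 were well above background on all 8 arrays, while 101 were not well above background on any row 2 array and all of those were lower in row 2. A feature of that kind is kept only if it is well above background on all 4 row 1 arrays, so its direction is largely set by the filter and supports nothing. Among the list members named below this applies to Cd8b1, Tnf, Ptgs2, Oas3, Bub1 and Lox, whose adjusted p is given as a description. Cxcl2, Mmp12, Top2a and Melk were well above background on 1 of the 4 row 2 arrays and Spi1 on 2. They too met the filter only with row 1, so it favoured their direction. With a filter on all 8 arrays, which such genes cannot pass, 9 mediators, 5 T and NK cell genes, 5 interferon genes, 10 cell cycle genes and 8 matrix genes were called, all lower.

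**Figure D1:**
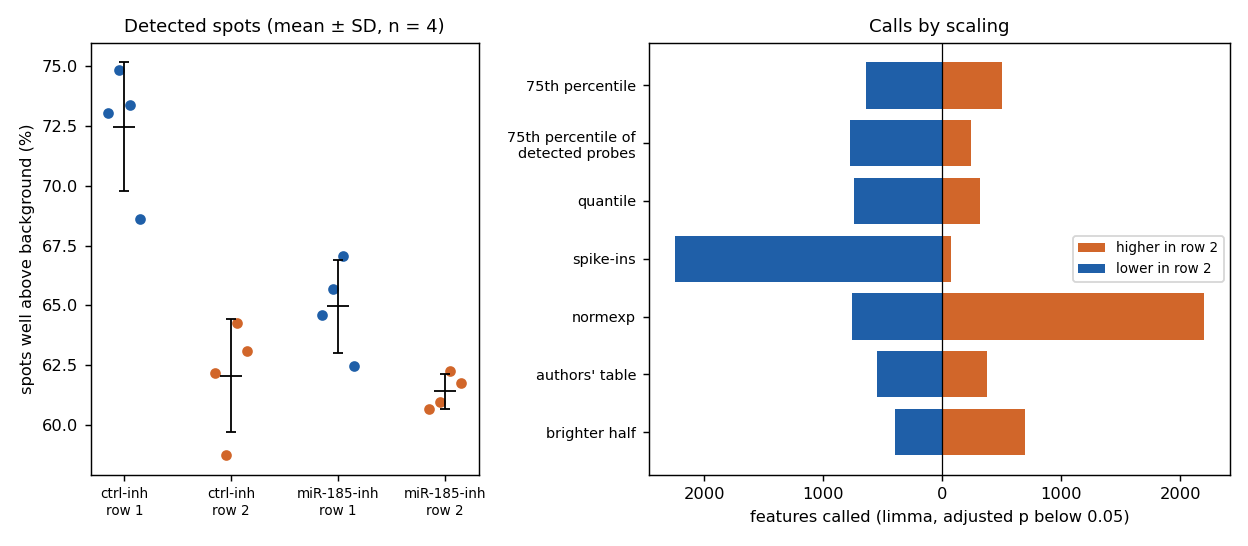
Left, percent of non-control spots well above background on each array (points), by slide and row, with mean ± SD of 4 arrays; right, number of features called higher (to the right) and lower (to the left) in row 2 of the ctrl-inh slide under 7 ways of scaling or filtering. Row 1 of the ctrl-inh slide lies at 68.6% to 74.8% and row 2 at 58.7% to 64.2%, and the higher calls range from 77 with spike-in scaling to 2199 with normexp.

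More than any other list, the genes of cholesterol synthesis and SREBP2 control were called higher in row 2. Of 24 listed genes 23 were tested, and 13 passed the test, all of them higher, against 1.85% of all features. The list's median difference was 0.67, against 0.08 for all features. Of the 23, 21 lay above 0, where 65.7% of all features did. In 20 of the 23 every row 2 liver lay above every row 1 liver, where 12.6% of all features did so. The median stayed between 0.44 and 0.74 under all other scalings, filters and fits and when any 1 liver was left out, and no member was called lower in any of them. The number called was 11 with spike-in scaling and 8 in the fit over all 16 arrays. Leaving out mouse 2 left 1 member called, leaving out mouse 1, 4 or 11 left 2 each, mouse 9 left 7 and mouse 12 left 8, while the median stayed between 0.598 and 0.739.

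Within the mevalonate branch, which turns acetyl-CoA into isoprenoid units, Mvd (mevalonate diphosphate decarboxylase) had the largest rise of all called RefSeq-named genes that were well above background on all 8 arrays. Its levels were 0.27, -0.38, 0.45 and 0.29 in row 1 and 2.56, 1.78, 1.96 and 2.37 in row 2. No row 1 liver came near the lowest row 2 liver. Mvd rose by 2.01 (SE 0.22), or 4.02-fold, with a limma adjusted p of 0.0111. Hmgcs1, the cytosolic synthase early in the branch, read 4.08, 4.11, 4.44 and 4.25 in row 1 and 4.88, 4.79, 4.81 and 5.06 in row 2 and rose by 0.66. Acat2, Mvk, Pmvk, Idi1 and Fdps, further enzymes of this stretch, had differences of 0.30, 0.67, 0.54, 0.45 and 0.52 and missed the threshold, with limma adjusted p from 0.0548 for Idi1 to 0.105 for Fdps. Ggps1 and Nus1, which draw isoprenoids away from sterol synthesis towards protein prenylation and dolichol, differed by -0.15 and -0.04 and did not pass. The Nus1 sign turned when a gene's probes were averaged.

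In the sterol branch, Sqle (squalene epoxidase) had levels of 1.72, 1.75, 2.11 and 2.25 in row 1 and 2.79, 2.73, 3.02 and 3.14 in row 2. The rows did not overlap, and the rise was 0.96 (SE 0.15). Lss, which folds squalene epoxide into lanosterol, rose by 1.13, and Fdft1, which makes squalene, by 0.68. A dimmer Fdft1 probe differed by -0.18, so its probes disagreed. The enzymes that strip methyl groups from lanosterol and its products rose as well, Cyp51 by 0.98, Msmo1 by 1.0, Nsdhl by 0.93 and Hsd17b7 by 0.77. A dimmer probe differed by 1.06 for Nsdhl and by 0.65 for Hsd17b7. Of the final steps, Dhcr7 rose by 0.81 and Sc5d by 0.33. Tm7sf2 and Ebp had differences of 0.26 and 0.27 and missed the threshold, although their rows did not overlap.

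Among the genes that control sterol supply, Insig1, which retains the SREBP complex in the endoplasmic reticulum and is itself induced by SREBP, read 1.40, 0.98, 1.19 and 1.37 in row 1 and 2.33, 1.92, 1.97 and 2.17 in row 2. Its rows did not overlap, and it rose by 0.86 (SE 0.13, limma adjusted p = 0.019). Srebf2, the gene of SREBP2, rose by 0.71 on its brightest probe, from -1.04 to -0.54 in row 1 and from -0.20 to 0.07 in row 2, while a dimmer probe differed by -0.44. Stard4, a sterol carrier, differed by 0.41 and missed the threshold (limma adjusted p = 0.0885). Pathway members outside the naming rule were added after their values were seen, to follow the pathway through its steps.

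**Figure D2:**
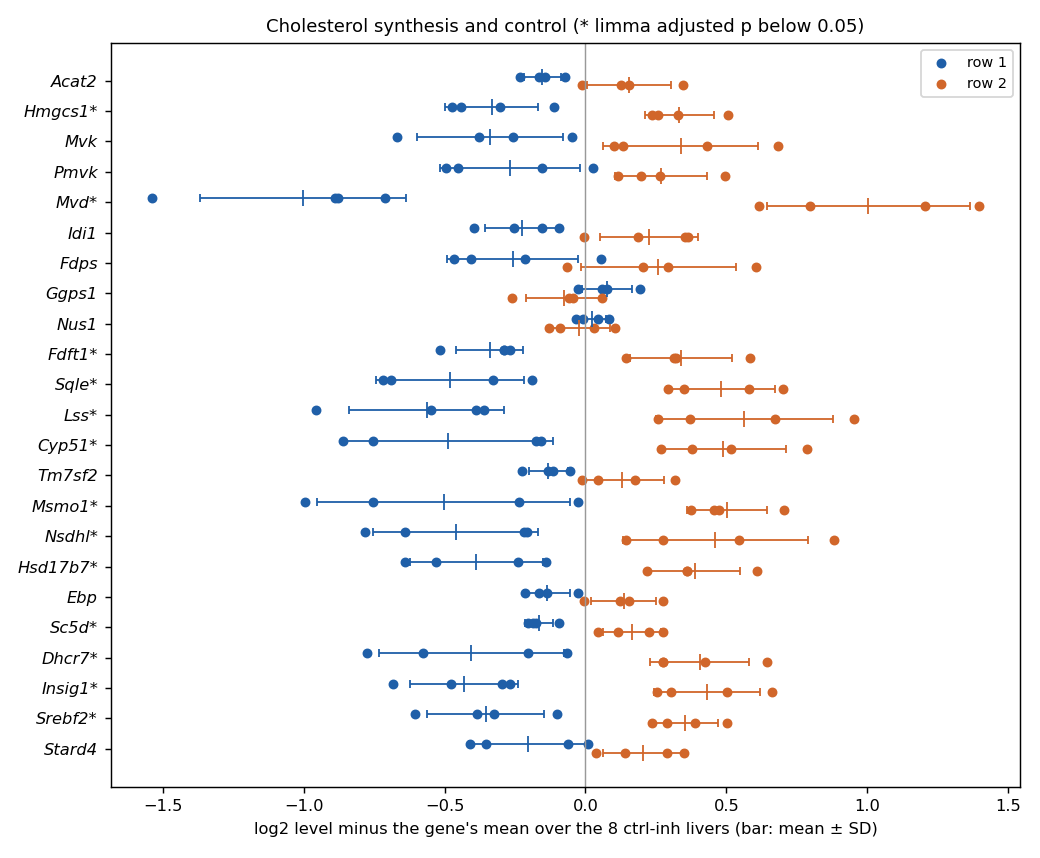
Level of the 23 tested cholesterol genes in each ctrl-inh liver, as log2 level minus the gene's mean over the 8 livers (points; bars are mean ± SD of 4 livers), in pathway order. The row 2 mean lies to the right of the row 1 mean for 21 genes, with the widest gap for Mvd (2.01), and the rows overlap for Fdps, Ggps1 and Nus1.

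The promoters of these genes shared a short motif that the row comparison did not use. RefSeq promoter windows (GRCm38.p6, mostly upstream of the start site and reaching a little past it) were found for 11 of the 13 risen genes. Fdft1 and Sqle had no entry. The letters CCAAT, the core bound by the factor NF-Y that works beside SREBP on sterol promoters, occurred on either strand in all 11, against 41.1% of the 27025 genes with an entry. They also occurred in 7 of the 8 list members with an entry that did not pass the test, so they did not set the called members apart from the rest of the list. CACGTG, an E-box, occurred in 4 of the 11 (Dhcr7, Hsd17b7, Insig1 and Sc5d) against 8.09% of all genes. TTTGAA and GAGGAA, searched in every set, occurred in 0 and 1 of the 11. TCACNCCAC, the classical sterol regulatory element and a motif added after the data were seen, occurred in 1 (Hmgcs1) against 1.44%. A match is a description of letters and not of binding. The windows of the 3 genes with the smallest p among those with an entry are shown 5′ to 3′ on the gene's strand, with CCAAT or its complement ATTGG in capitals. They lie at chr8:122443438-122443522 (minus strand) for Mvd, chr5:28071162-28071240 (plus strand) for Insig1 and chr13:119690266-119690350 (plus strand) for Hmgcs1.
Mvd: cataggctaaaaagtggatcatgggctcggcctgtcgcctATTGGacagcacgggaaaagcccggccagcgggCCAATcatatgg
Insig1: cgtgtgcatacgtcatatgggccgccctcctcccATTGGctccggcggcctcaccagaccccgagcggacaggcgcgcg
Hmgcs1: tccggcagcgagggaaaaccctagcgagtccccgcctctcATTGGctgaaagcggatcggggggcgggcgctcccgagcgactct

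Called inflammatory mediators were lower in row 2. Of 38 tested chemokines and inflammatory mediators 12 passed the test, all lower in row 2, against 2.37% of all features. The list median was -0.58, with 33 members below 0. The mean over the list was lower in every row 2 liver than in any row 1 liver. Il1a, which encodes the alarm cytokine interleukin 1 alpha, had levels of -0.59, -0.72, -0.85 and -0.89 in row 1 and -2.50, -2.15, -2.03 and -2.57 in row 2. It fell by 1.55 (SE 0.14), with limma adjusted p = 0.00785. Casp1, the protease that releases mature interleukin 1 beta, read 1.14, 1.13, 0.93 and 1.16 in row 1 and 0.54, 0.43, 0.44 and 0.39 in row 2, a fall of 0.64 on the log2 scale. Vcam1, an adhesion molecule for leukocytes on endothelium, fell by 0.62, and a dimmer probe differed by -1.67. Ccl2 and Ccl7, which encode chemokines that recruit monocytes, fell by 1.61 and 1.54. Ccl2 spread widely in row 1, at 0.83, 0.55, -0.62 and 0.19, and the lowest of these lay just above mouse 8, the highest of row 2 (-0.81, -1.69, -1.46 and -1.54). The chemokine genes Cxcl2, Cxcl9 and Ccl3 fell by 1.37, 1.03 and 1.40, with Cxcl2 well above background on 1 of the 4 row 2 arrays. Tnf, the gene of tumor necrosis factor, and Ptgs2, which makes prostaglandins, passed too but were not well above background on any row 2 array. Tnf was at least 1.52-fold lower there, and Ptgs2 allowed no bound. Such a bound sets the row 1 mean against the dimmest signal that counted as above background. Leaving out mouse 2, 4 or 11 left 2 members called, mouse 9 left 3 and mouse 1 left 5, and over all single omissions the median stayed between -0.682 and -0.524.

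The promoters of the fallen mediators were searched for GAGGAA, the core recognised by the myeloid factor PU.1. A RefSeq window was found for 7 of the 12. Ccl2, Ccl7, Ccl24, Cxcl16 and Vcam1 had no entry. The letters occurred on either strand in 6 of the 7, against 31.3% of all genes and 5 of 22 list members that did not pass. Among the 6, Tnf and Ptgs2 were not well above background on any row 2 array, and Cxcl2 was on 1. The filter largely set or favoured the direction of these genes, so the contrast with uncalled members rests partly on the filter. Of the other motifs searched, CCAAT occurred in 2 of the 7, the E-box CACGTG in 2 and the cell cycle element TTTGAA in 0. The windows of Il1a (chr2:129309973-129310053, minus strand) and Casp1 (chr9:5298369-5298454, plus strand), the members with the smallest p, are shown with GAGGAA or its complement TTCCTC in capitals.
Il1a: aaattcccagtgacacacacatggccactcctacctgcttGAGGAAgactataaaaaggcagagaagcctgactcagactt
Casp1: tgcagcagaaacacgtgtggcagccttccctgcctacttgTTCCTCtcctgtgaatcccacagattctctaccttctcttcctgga

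Macrophage genes did not all move alike. Clec4f and Cd5l, which mark resident Kupffer cells, did not pass the test. Clec4f read 4.10, 4.12, 3.93 and 4.15 in row 1 and 3.94, 3.96, 4.08 and 4.28 in row 2, so the rows overlapped, and its difference of -0.01 (SE 0.10) changed sign under several alternatives. Cd5l differed by -0.13 (SE 0.11). Since bulk RNA was measured, fewer cells of a type and less RNA per cell cannot be told apart here or below. Of 26 tested Kupffer and macrophage genes 5 passed, all lower in row 2, against 2.37% of all features, with a median of -0.38. Adgre1, the gene of the macrophage surface protein F4/80, had levels of 2.84, 2.79, 2.66 and 2.78 in row 1 and 2.20, 2.25, 2.18 and 2.43 in row 2. It fell by 0.50 (SE 0.08, limma adjusted p = 0.0232), and a dimmer probe differed by -0.79. Lyz2 (lysozyme, made by most myeloid cells) fell by 1.06, Hmox1 (heme oxygenase) by 0.69, Mertk (a receptor for dying cells) by 0.53 and Spi1 (the gene of PU.1) by 1.33, the last well above background on only 2 of the 4 row 2 arrays. Mouse 12 had a list mean 0.0929 above the gene means of the 8 livers, while the rest of row 2 lay between 0.271 and 0.324 below them. Without mouse 12 the number of fallen members was 12, and without mouse 8 the list's median was -0.234. Without mouse 1, 2, 4, 9 or 11 none was called, and without mouse 3 or 8 there were 2.

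Lipid-associated macrophage genes, expressed by macrophages that take up lipid and debris, passed in 4 of 24 tested, all lower. Of the 24, 9 lay above 0 and 15 below, with 2 higher and 13 lower at an unadjusted p under 0.05 in limma. At that level 17.3% of all features were higher and 8.75% lower. The 4 that passed were Capg, an actin-capping protein gene that fell by 0.84, Lgals3 (galectin 3, by 0.56), the fatty acid carrier gene Fabp4 (by 0.82) and Mmp12. Mmp12, a matrix-degrading elastase, was well above background on 1 of the 4 row 2 arrays, where it read -4.32, -6.89, -6.82 and -5.89 against -1.04, -2.89, -3.31 and -3.26 in row 1. Trem2, the receptor that defines these cells, read 1.56, 0.33, 0.80 and 0.24 in row 1 and 0.01, -0.18, -0.01 and 0.24 in row 2. The lowest row 1 liver and the highest row 2 liver both lay at 0.24, and the gene did not pass, with a difference of -0.72 (limma adjusted p = 0.148). Mouse 1 stood above the other row 1 livers in the list mean, and without it no member was called and the median moved from -0.41 to -0.28. No member was called without mouse 2, 4, 9 or 11 either, while mouse 3 or 12 left 1 and mouse 8 left 2. Among 17 monocyte genes Ms4a6c alone passed and fell by 0.94, where 2.37% of all features were called lower. Among the 10 largest falls of single genes were the pattern receptor gene Clec4e (by 2.19), its relative Clec4b1 (by 1.48), the sialic acid enzyme gene Npl (by 1.68) and the survival gene Bcl2a1c (by 1.5). Of 17 neutrophil genes none passed in limma, with 2 higher and 2 lower at an unadjusted p under 0.05. S100a8 ran from 1.01 to 1.56 in row 1 and from 0.02 to 2.01 in row 2.

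Some T cell, NK cell and MHC class II genes fell as well, while MHC class I genes gave no call. Of 22 tested T and NK cell genes 4 passed, all lower, against 2.37% of all features. The list median of -0.67 was the lowest of the 46 lists. Gzma, a granzyme of cytotoxic cells, read 0.73, 0.17, -0.03 and -0.09 in row 1 and -0.63, -0.53, -0.90 and -1.11 in row 2. The rows did not overlap, and the fall was 0.98 (SE 0.20, limma adjusted p = 0.0389). Gzmb and the NK receptor gene Klrd1 fell by 0.96 and 0.95. Cd8b1, a chain of the CD8 receptor, was not well above background on any row 2 array, which gives a level at least 1.96-fold lower there (limma adjusted p = 0.0256). None of these was called without mouse 2, 4 or 11, 1 was called without mouse 1, 3 or 8, and 2 without mouse 9 or 12. Among the 13565 brighter features the T and NK cell median was -0.589 and 1 member was called. Of 19 dendritic cell and MHC class II genes 4 fell and 1 rose, against 2.37% and 1.85% of all features. The class II genes H2-DMa and H2-Aa fell by 0.86 and 0.83, and Batf3, a factor of cross-presenting dendritic cells, by 0.47. Zbtb46, also a dendritic cell factor, rose by 0.37 on its brightest probe, a call lost when a gene's probes were averaged and with quantile normalization and spike-in scaling, among other settings. No lower call was made without mouse 1, 2, 3, 4, 9 or 11, and 2 were made without mouse 8 or 12. Of 12 B and plasma cell genes none passed in limma, with 2 higher and 1 lower at an unadjusted p under 0.05. None of 14 MHC class I genes passed, with a median of 0.10 and 1 lower at that level. Of the 14, 10 lay above 0, where 65.7% of all features did.

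Interferon response genes passed in 7 of 43, all lower, against 2.37% of all features. The list median was -0.09, with 32 members below 0. The called members included 3 guanylate-binding protein genes, which act against intracellular pathogens. Gbp2 read 0.40, 0.10, -0.15 and -0.18 in row 1 and -1.12, -1.16, -1.48 and -0.99 in row 2, a fall of 1.23 (SE 0.15, limma adjusted p = 0.014). Gbp5 and Gbp3 fell by 1.12 and 0.53. Ifit2, an inhibitor of viral translation, fell by 1.07 with both rows tight, at -1.78 to -1.51 and -2.89 to -2.52. Oas3, an RNA sensor, was not well above background on any row 2 array and was at least 1.33-fold lower there (limma adjusted p = 0.0203). Without mouse 2 there was 1 call, without mouse 4 there were 2, without mouse 1 there were 3 and without mouse 9 or 11 there were 4.

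Called cell cycle genes were lower in row 2. Of 56 tested 8 passed, all lower, against 2.37% of all features, with a median of -0.37 and 48 members below 0. In 21 of the 56 every row 2 liver lay below every row 1 liver, against 5.53% of all features. Top2a, the topoisomerase of dividing cells, had levels of -3.78, -3.63, -3.80 and -4.05 in row 1 and -6.04, -5.66, -5.85 and -4.83 in row 2. It fell by 1.78 (SE 0.24, limma adjusted p = 0.0163), with 1 of the 4 row 2 arrays well above background. Cdk1, the kinase that drives mitosis, fell by 0.66 on its brightest probe, and dimmer probes differed by 0.01 and -0.41. The cytokinesis genes Anln and Kif23 fell by 0.81 and 0.98, Cenpa (the histone of centromeres) by 0.45 and Ube2c (which tags mitotic proteins for destruction) by 1.07. The mitotic kinase genes Bub1 and Melk were dim. Bub1 was well above background on no row 2 array and at least 1.81-fold lower there (limma adjusted p = 0.03), and Melk, well above background on 1, fell by 1.35. Mki67, a common marker of proliferation, read -0.81, -0.88, -1.14 and -1.07 against -2.54, -1.51, -1.41 and -1.57 and missed the threshold (limma adjusted p = 0.0984). Among the 13565 brighter features the list's median was -0.0842 and 1 member was called. No member was called without mouse 2 or 4, 1 without mouse 1 or 11 and 2 without mouse 3 or 9.

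All 8 called cell cycle genes had a RefSeq promoter window. The cell cycle homology element TTTGAA occurred in 6 of them against 20.2% of all genes, and in 19 of 39 list members that did not pass. CCAAT also occurred in 6, against 29 of the 39. CACGTG occurred in 1, against 1 of the 39. GAGGAA occurred in 5, against 11 of the 39 and 31.3% of all genes, so its excess was not limited to the mediators. The windows of Top2a (chr11:99024190-99024252, minus strand) and Cdk1 (chr10:69352938-69353023, minus strand) are shown with TTTGAA or its complement TTCAAA in capitals, as the called members of smallest p that held it before the start site.
Top2a: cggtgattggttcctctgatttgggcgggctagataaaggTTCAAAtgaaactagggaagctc
Cdk1: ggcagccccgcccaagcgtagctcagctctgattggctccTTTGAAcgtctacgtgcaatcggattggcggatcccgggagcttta

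A minority of endothelial, stellate and matrix genes fell. Of 26 tested endothelial genes 5 passed, all lower, against 2.37% of all features, with a median of -0.43 and 25 below 0. Cdh5, the cadherin that joins endothelial cells, had levels of 0.76, 0.61, 0.52 and 0.56 in row 1 and -0.09, -0.03, -0.17 and 0.12 in row 2. It fell by 0.65 (SE 0.09, limma adjusted p = 0.0157). Lyve1, a hyaluronan receptor of sinusoids and lymphatics, read 1.51, 0.93, 1.22 and 0.96 in row 1 and 0.50, -0.37, -0.26 and 0.07 in row 2 and fell by 1.17. The sinusoidal gene Oit3 and the sialomucin gene Emcn fell by 0.82 and 1.29. Stab2, a scavenger receptor that defines liver sinusoidal endothelium, ran from 3.27 to 3.49 and from 3.08 to 3.33, so the rows overlapped, and did not pass (difference -0.14, SE 0.09). Without mouse 2 or 4 no endothelial gene was called, without mouse 1, 3, 9 or 11 there was 1, and without mouse 12 there were 8.

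Of 20 tested stellate cell genes 3 passed, all lower, against 2.37% of all features, with a median of -0.40. Among the 13565 brighter features the list's median was -0.161 and 1 member was called. The transcription factor genes Hand2 and Tcf21 mark the lineage, and Reln encodes a secreted protein that stellate cells make in liver. Hand2 was tight in both rows, at -1.25, -1.14, -1.17 and -1.15 in row 1 and -1.79, -1.95, -1.82 and -1.77 in row 2, and fell by 0.65 (SE 0.07, limma adjusted p = 0.0105). Tcf21 fell by 0.98 and Reln by 0.66. Among 33 matrix and fibrosis genes 5 passed, all lower, against 2.37% of all features, with a median of -0.46. Timp1, an inhibitor of matrix proteases, read -1.52, -2.70, -2.80 and -2.59 in row 1 and -3.84, -4.52, -4.12 and -3.59 in row 2. Mouse 1 was far above its row, and the fall was 1.62 (SE 0.31). Tgfb1, the main profibrotic cytokine, fell by 0.52 and Thbs1, which activates it, by 0.70. Lox, which cross-links collagen, was not well above background on any row 2 array, with an adjusted p of 0.0276 in limma and no bound on its fold. The collagen genes Col1a1 and Col3a1 differed by -0.29 and -0.41 and did not pass (limma adjusted p = 0.352 and 0.173). Without mouse 1, 2, 3, 4 or 11 there was 1 stellate call, without mouse 9 there were 2 and without mouse 8 there were 5. For matrix genes there was none without mouse 2, 4 or 11, 1 without mouse 1, 3 or 9 and 8 without mouse 12.

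**Figure D3:**
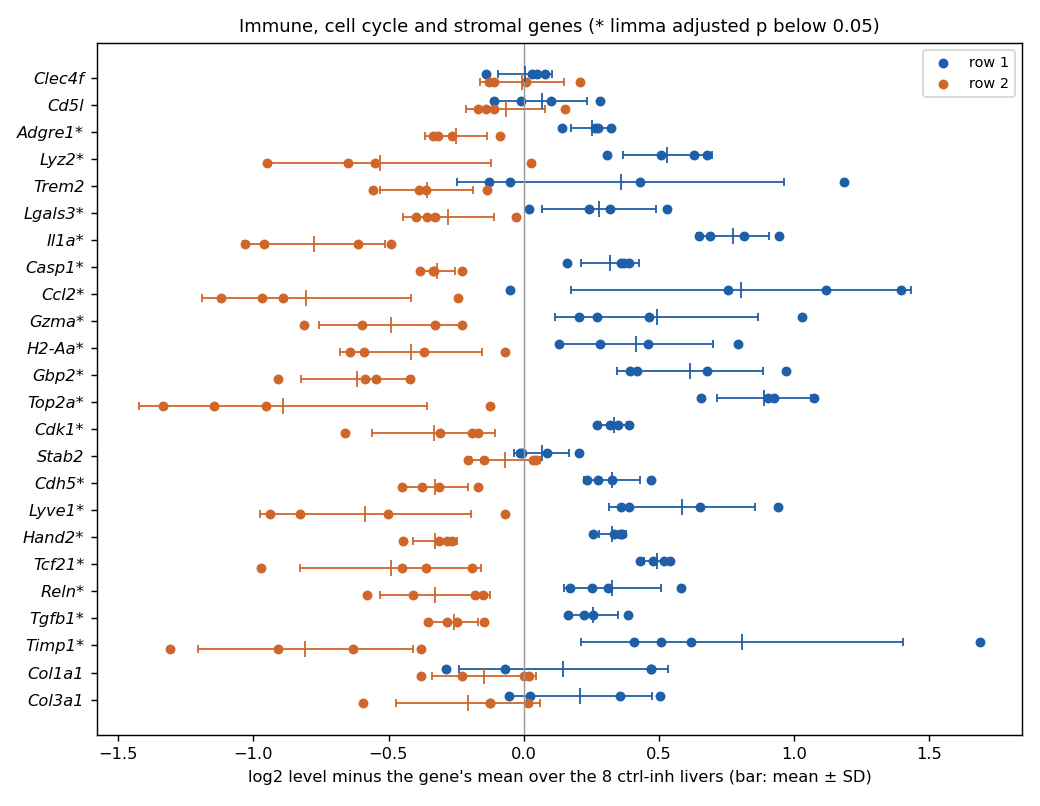
Level of 24 immune, cell cycle and stromal genes in each ctrl-inh liver, as log2 level minus the gene's mean over the 8 livers (points; bars are mean ± SD of 4 livers). Row 2 lies to the left of row 1 for the starred genes, while the rows overlap for Clec4f, Cd5l, Stab2, Col1a1 and Col3a1.

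Hepatocyte and most metabolic genes had small differences and few calls. All 23 tested hepatocyte markers lay above 0, where 65.7% of all features did. Yet their median of 0.16 was close to the 0.08 of all features and turned to -0.0773 with spike-in scaling. None passed in limma, and 3 were higher at an unadjusted p under 0.05, a level that 17.3% of all features reached higher and 8.75% lower. Oxidative phosphorylation genes had 64 of 65 members above 0, a median of 0.14 and no call, with 18 higher at an unadjusted p under 0.05, and their median was -0.00279 after quantile normalization and -0.093 with spike-in scaling. Urea cycle genes (50 tested), complement and coagulation factors (40) and cytosolic ribosomal protein genes (70) likewise held no call in limma, with 24, 20 and 12 members higher at an unadjusted p under 0.05. For the ribosomal genes that is a share near the one over all features, and for the urea cycle and complement lists a larger one. Pericentral hepatocyte genes had 11 of 20 higher at that level, 1 call and a median of 0.24, which was 0.00253 with spike-in scaling. Scaling on the spike-ins lowered every list by nearly the same amount, the 0.236 by which the spike-ins differed between the rows, so a median between 0 and that value, as in 27 of the 46 lists, turned by construction. Signs of list medians this small rest on the scaling.

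Bile acid genes, which the series addresses, gave a single call, where 4.22% of all features were called. Of 20 bile acid synthesis genes none was called in limma, with 4 higher and 1 lower at an unadjusted p under 0.05. Cyp7a1, which starts the classical pathway, read 0.88, 1.04, 2.17 and 0.66 in row 1 and 1.44, 1.90, 1.83 and 1.59 in row 2. Mouse 3 of row 1 was the highest of the 8, so the rows overlapped, and the difference was 0.50 (SE 0.30, limma adjusted p = 0.319). Foxo1, an insulin-restrained transcription factor, ran from 1.73 to 1.94 and from 1.64 to 1.74 and differed by -0.10. Of 17 bile acid and canalicular transporters Abcc4, an efflux pump of the basolateral membrane, fell by 0.74. No bile acid regulator of 23 passed, with 1 higher and 3 lower at an unadjusted p under 0.05.

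Lipid genes outside the sterol pathway were mixed. Of 38 fatty acid synthesis and storage genes 2 rose and 2 fell, where 1.85% of all features rose and 2.37% fell. Elovl6 and Fads1, which lengthen and desaturate fatty acids in hepatocytes, rose by 0.34 each, calls lost with quantile normalization, with spike-in scaling and on leaving out any 1 of the 8 livers. Scd2, a desaturase expressed mainly outside hepatocytes, fell by 0.69, and the other fall was Fabp4. Fasn, the fatty acid synthase, read 0.21, 0.05, -0.43 and -0.14 in row 1 and 0.62, 0.18, 0.92 and 0.94 in row 2. Its rows overlapped and it missed the threshold, with a difference of 0.74 (limma adjusted p = 0.0748). None of 40 PPAR alpha and fatty acid oxidation genes was called in limma, with 3 higher and 3 lower at an unadjusted p under 0.05, and Cpt1a, the gate of mitochondrial oxidation, differed by 0.07.

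Stress and secretion genes gave a few calls, where 1.85% of all features were called higher and 2.37% lower. Of 36 endoplasmic reticulum chaperone and unfolded protein response genes Syvn1 and Sel1l passed and rose by 0.79 and 0.71. They encode the ubiquitin ligase and its scaffold, which clear misfolded proteins from the endoplasmic reticulum. Syvn1 read 2.65, 2.49, 2.59 and 2.46 in row 1 and 3.49, 3.35, 3.13 and 3.37 in row 2. Hspa5, the chaperone BiP, differed by 0.27 and did not pass (limma adjusted p = 0.109). The list's median was 0.20, with 16 members higher and none lower at an unadjusted p under 0.05 in limma. At that level 17.3% of all features were higher. With spike-in scaling the list's median was -0.0365. Of 32 acute phase genes Orm3 rose by 1.23, with 1 row 2 spot (mouse 8) left out as an outlier, and Saa1 differed by 0.34 (limma adjusted p = 0.25). The acute phase median was 0.27, with 12 members higher and none lower at an unadjusted p under 0.05 in limma. It was 0.0332 with spike-in scaling. Among immediate early genes the Krüppel-like factor genes Klf4 and Klf2 fell by 0.96 and 0.67 and Rhob by 0.44, out of 29 tested with a median of 0.06.

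Single calls in other lists complete the account. Over all features 1.85% were called higher and 2.37% lower, so a single call says little about its list. Hbb-bs, a beta globin gene, had levels of 1.98, 1.66, 1.91 and 1.64 in row 1 and -0.11, 0.33, -0.64 and 0.66 in row 2 and fell by 1.74. Globin genes are near copies of each other, so their probes may share signal. Hbb-bt and Hba-a1 differed by -0.74 and -0.70 and missed the threshold, and the 12 erythroid and platelet genes had a median of -0.05. Avpr1a, a vasopressin receptor of pericentral hepatocytes, rose by 0.54, Cyp3a44, a P450 gene of the drug-metabolising 3a family, by 0.76, and Sox9, a factor of bile duct cells and periportal hepatocytes, by 0.79. Amy2a5, an amylase gene, rose by 0.35, the single call among 10 acinar genes. The lysosomal protease gene Ctsk fell by 0.85, the iron-sensing ligand gene Bmp6, which sinusoidal endothelium makes, by 0.96, the hexokinase gene Hk3 by 0.51 and the apoptosome gene Apaf1 by 0.38. Among hypoxia genes Adm fell by 0.62 and Car9 rose by 0.48. Large rises outside the lists were seen in Nfe2, a megakaryocyte and erythroid factor (by 1.32), Sgsm1 (by 1.08), Crnn (by 0.96) and Fam222a (by 0.95), and of the 10 largest falls Efnb2, an arterial ephrin (by 1.47), and Dnajb13 (by 1.43). None of the 24 clock genes was called in limma, with 4 higher and 1 lower at an unadjusted p under 0.05, and Arntl and Per2 differed by 0.56 and -0.19.

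**Figure D4:**
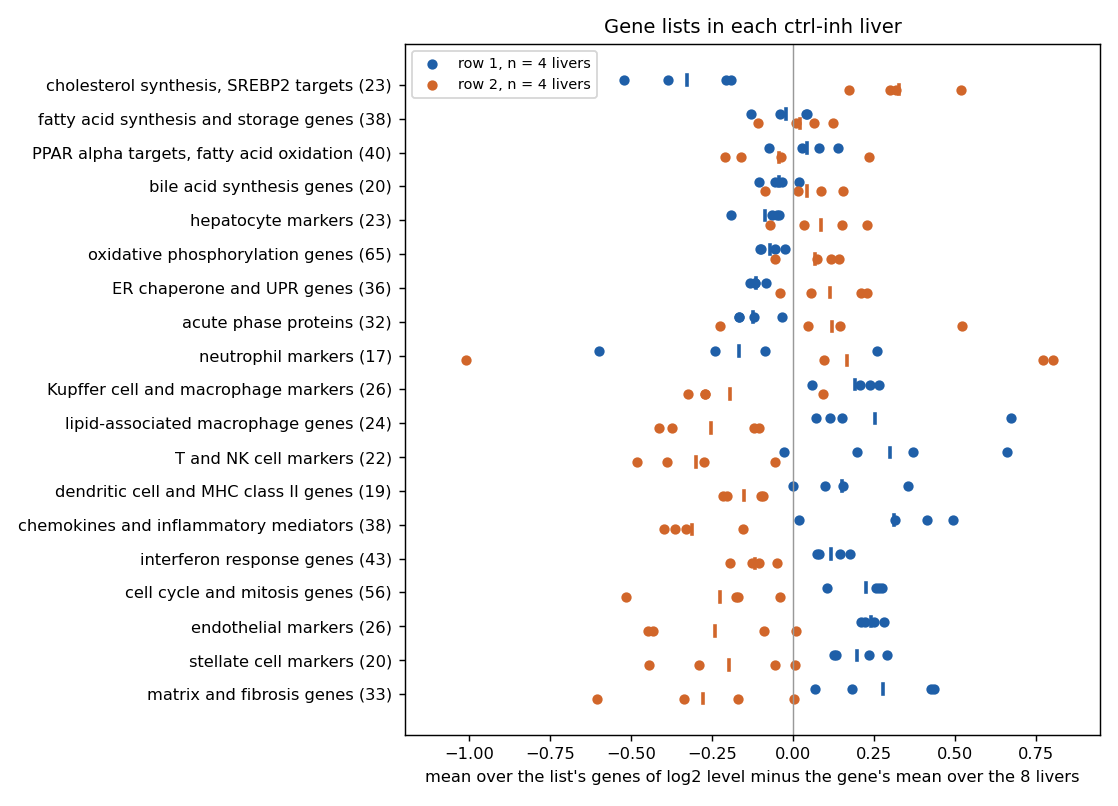
Mean level of 19 gene lists in each ctrl-inh liver, as the mean over the list's tested genes (number in brackets) of log2 level minus the gene's mean over the 8 livers; ticks mark the mean of 4 livers. Row 2 lies above row 1 in every liver for cholesterol synthesis and below it for chemokine, cell cycle, endothelial, stellate and matrix genes, while neutrophil genes spread from -1.01 to 0.80 within row 2.

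The same contrast on the other slide, among the miR-185-inh livers, gave no called feature in limma (0%), with 3074 at an unadjusted p under 0.05 against 7073 on the ctrl-inh slide. The features higher in row 2 of the ctrl-inh slide and those lower there differed in what they did on the second slide, with which they share no array. Of the 501 higher calls 432 (86.2%) also lay above 0 in the miR-185-inh rows, with a median of 0.23, where 50.6% of all features did. Of the 644 lower calls 150 (23.3%) lay below 0, with a median of 0.16, where 49.4% of all features did. The cholesterol list had a median of 0.28 on the miR-185-inh slide. Its members differed from one another there: Mvd differed by 0.89, Dhcr7 by 0.80, Cyp51 by 0.68 and Nsdhl by 0.68, none of them called, while Insig1 differed by 0.11 and Sc5d by 0.07. The immune, stromal and cell cycle lists that were lower in row 2 of the ctrl-inh slide had medians above 0 there, at 0.54 for T and NK cell genes, 0.25 for chemokines, 0.20 for Kupffer genes, 0.21 for matrix genes, 0.16 for endothelial genes, 0.10 for stellate genes and 0.05 for cell cycle genes. As list means relative to the gene means of that slide, T and NK cell genes lay at 1.12 in mouse 10. The other row 2 livers lay between -0.0697 and -0.0266, and row 1 between -0.376 and -0.111. For the other lists named in this paragraph the list means of single livers overlapped between the rows of that slide.

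**Figure D5:**
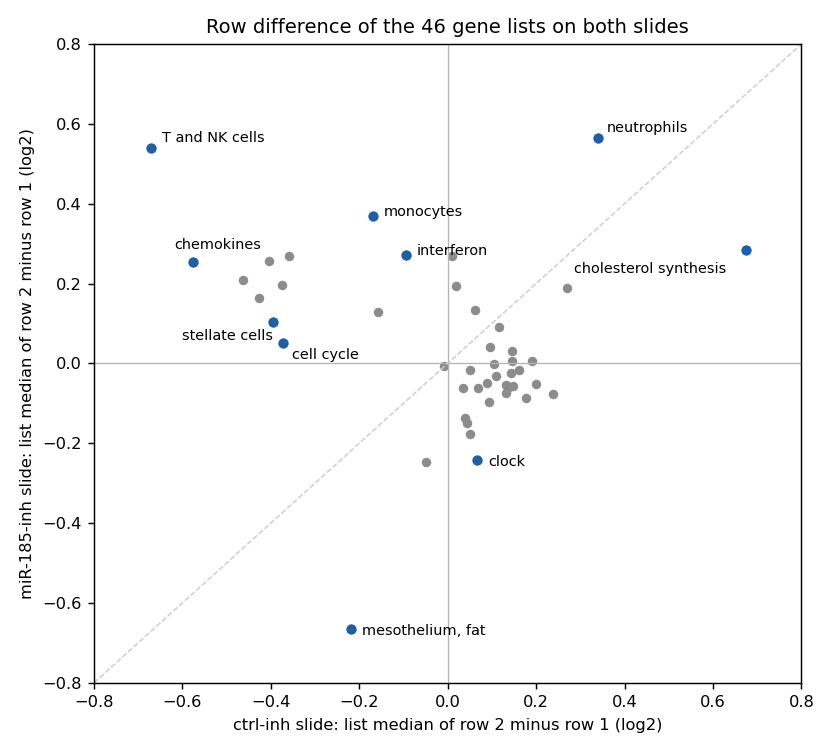
Median row difference of the 46 gene lists, row 2 minus row 1, on the ctrl-inh slide (x axis) and on the miR-185-inh slide (y axis), both in log2 units; the dashed line marks equal differences. T and NK cell genes lie at -0.67 and 0.54, and cholesterol genes at 0.67 and 0.28.

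When the slides' row differences were themselves compared, limma called 52 features (0.192%), 46 of them also called on the ctrl-inh slide, and 50 of them were lower in row 2 there. None of the cholesterol genes described here was among them. Of the cell cycle genes Top2a and Kif23 were called, of the mediators Ccl7, and of the interferon genes Gbp5, Gbp3, Oas3 and Oas1g. Oas3 and Oas1g were not well above background on any ctrl-inh row 2 array and Top2a on 1, so the size of their differences is uncertain. All 7 had row differences above 0 on the miR-185-inh slide and below 0 on the ctrl-inh slide, as in Top2a with 0.52 and -1.78 and Gbp5 with 0.72 and -1.12. The count ranged from 4 without ctrl-inh mouse 11 to 423 without miR-185-inh mouse 12. For the other genes named here the difference between the slides did not pass, including Il1a, Casp1, Tgfb1 and Syvn1, each at an adjusted p of 0.0512 in limma.

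Fewer named calls were kept when 1 liver was left out, which also leaves the test fewer arrays, and under some other fits. Of the 96 genes named here that were called, 89 kept their call with quantile normalization and 86 with spike-in scaling, but 62 with slide column as a covariate and 57 in the fit over all 16 arrays, and none changed sign in any alternative. The calls kept numbered 10 without mouse 2, 12 without mouse 4, 23 without mouse 11, 24 without mouse 1, 36 without mouse 9, 51 without mouse 3, 68 without mouse 8 and 71 without mouse 12.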

How the data were processed

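Liver RNA was measured on 1-colour Agilent mouse arrays, 1 array per liver. Per the file headers, the deposited intensity values are Feature Extraction's processed signals, already background-subtracted and detrended within each array, with software version 11.5.1.1 in all 16 headers, while the submitters' processing notes list 9.1. The authors' deposited log2 table holds the same processed signals minus 1 constant per array, with column medians from -1.296 to -1.218, and was used as an alternative. The choice of that constant is not stated in these sources.

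Here the 75th percentile of an array's non-control spots was subtracted from its log2 intensities. Control spots and outlier flags were left out, spots of a probe were averaged, and a probe had to be well above background on 4 or more ctrl-inh arrays. A gene is its brightest probe. RefSeq tables named 26762 of 55681 probes, and 1280 of the 1309 symbols in 46 lists were on the array. Tests used lmFit and eBayes (limma 3.58.1, R 4.3.3) with Benjamini-Hochberg adjustment over all features at 0.05, or exact two-sided permutation over samples. Named genes were the 10 largest rises and falls among called genes bright on all 8 arrays, up to 4 of smallest p in each list with a call, and a set of defining markers. Others were added after their values were seen, namely further cholesterol genes, called mediators and mitotic genes, globins, and Mertk, Gbp3 and Oas1g. The members, lists and naming rule were chosen with earlier results of these data known. Some genes of the cholesterol list are not reported here and were left out of its counts. The fit was tested on simulated data with known changes. Alternatives were background correction, scaling, probe filters, the authors' table, averaged probes, array weights, a moderated fit with trend, slide column, all 16 arrays together and each liver left out. Promoter windows and coordinates are RefSeq's, on GRCm38.p6.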

Additional observations from a re-analysis of the deposited data

Results flagged for a closer look

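In a group of 4 livers, a single liver was singled out where its gap to the nearest other liver exceeded 0.829 of the group's range. This held in 18 of 345 groups examined (5.22%), and chance alone gives about 1 in 20, a rate close to the one seen.

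In row 1, mouse 1 was the highest liver for Crnn (-4.71) and Timp1 (-1.52) and for the mean of the lipid-associated macrophage genes (0.674, next 0.153). Mouse 4 was the highest for Hmox1 (2.22) and Foxo1 (1.94) and the lowest for Sox9 (-1.79) and the mean of the cell cycle genes (0.104, next 0.258). Mouse 3 was the lowest for Casp1 (0.93), for the mean of the hepatocyte markers (-0.19) and for the mean of the glucose and glycogen genes (-0.137), and the highest of its row for the pericentral genes (-0.023). Mouse 2 was the lowest for Fdft1 (3.04).

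In row 2, mouse 9 was the highest for Clec4e (-4.37) and Ccl3 (-3.29), mouse 11 for Oas3 (-5.22), and mouse 12 for Ms4a6c (-0.87) and the mean of the Kupffer and macrophage genes (0.0929, next -0.271). Mouse 8 was the lowest for Mki67 (-2.54).

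The row difference itself differed between the slides in 52 features by limma's interaction test. Among the genes named here the row difference in miR-185-inh livers exceeded that in ctrl-inh livers by 2.30 for Top2a, 2.03 for Ccl7, 1.84 for Gbp5, 1.51 for Kif23 and 0.80 for Gbp3. The measured values were 1.70 for Oas1g and 1.27 for Oas3, but neither gene was well above background on any ctrl-inh row 2 array, so these sizes are uncertain. The same holds for Top2a, well above background on 1 of those arrays.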

How the results depend on the processing

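The number of features called between the ctrl-inh rows moved from 1145 to 2958 with normexp background correction, 5930 without a filter on dim probes, 1802 with a trended and robust moderated fit, 613 with slide column as a covariate, 753 in the fit over all 16 arrays and 2321 with spike-in scaling, an alternative added after the data were seen. The other settings gave 920 to 1645, and leaving out 1 liver gave 88 to 915. The miR-185-inh rows gave 0 calls in limma in each alternative tried. The 52 features that differed between the slides became 12 with normexp, 169 with quantile normalization, 101 with the authors' table, 114 with a filter on all 8 ctrl-inh arrays and 2378 without a filter, and 4 to 423 when 1 liver was left out. Sign changes were seen only in genes that did not pass the test. Alb turned to -0.00405 with quantile normalization and -0.0493 with spike-in scaling, Cpt1a to -0.058 and -0.168, Clec4f to 0.0123 with normexp and to between -0.0849 and 0.0301 on leaving out 1 liver, and Nus1 to 0.00266 with averaged probes. S100a8 turned to -0.0418 with normexp, -0.00779 with quantile normalization, -0.0178 with the percentile of detected probes, -0.0625 with array weights and -0.199 with spike-in scaling, and ran from -0.222 to 0.438 on leaving out 1 liver. The causes were not tested. No paired analysis was possible because the rows share no mouse number. The slide column, which they do share, was fitted as a covariate, with the 613 calls given above. With 4 arrays per row and fewer spots above background in row 2, falls of dim genes were measured with less certainty than those of bright genes.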
